A study of Mus musculus with 8 samples.

Results

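The amino acid transporter genes described here are the 64 RefSeq protein-coding genes of GRCm38 whose symbols begin with Slc1a, Slc3a, Slc6a, Slc7a, Slc36a, Slc38a or Slc43a followed by a digit. They are 64 of 21887 protein-coding genes and fall into 7 families: Slc1 with 7 genes, Slc3 with 2, Slc6 with 21, Slc7 with 16, Slc36 with 4, Slc38 with 11 and Slc43 with 3. The rule works by symbol, so it also takes in Slc7a6os, a neighbour of Slc7a6 that encodes no transporter, and Slc6 carriers of neurotransmitters, taurine and creatine. CUT&Tag, in which an antibody brings a transposase to a histone mark so that the DNA around it is cut out and sequenced, was done for H3K27ac and H3K9ac in small intestinal crypt cells of male C57BL/6J mice aged 9 weeks. The 4 groups of each mark were Fed and Fast (24 h without food), each without (-Tetra) or with (+Tetra) 21 days of the antibiotic tetracycline, and the same 4 groups were used for both marks. Each of the 8 samples had 2 peak lists, called 1 and 2 here after the replicate numbers in the list names. The labels do not say whether these came from separate mice, so the list is the unit of spread, and p-values are too small if the pair are repeats of a sample.

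H3K27ac and H3K9ac are acetylations of histone H3 found at active promoters, and H3K27ac is also found at active enhancers. Enterocytes take amino acids from the gut lumen through carriers in the brush border, chiefly sodium-coupled carriers and exchangers, and pass them to the blood through exchangers and facilitated carriers of the basolateral membrane. Several exchangers are pairs of a heavy chain, which takes the complex to the membrane, and a light chain, which carries the amino acid. Crypt cells, which divide, also use such carriers for their own growth.

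A peak no more than 1 kb from either end of the RefSeq gene model counted as marking that gene. Covered length is the number of base pairs under peaks in the gene model and 1 kb on either side. The lists held 32392 to 68545 peaks for H3K27ac and 17249 to 99050 for H3K9ac, and their read depth is unknown. Peaks of the minimum width of 200 bp made up 0 to 11.8% of the H3K27ac lists. In H3K9ac they made up 17.2%, 1.32%, 20.3% and 31.2% of the Fast lists but 0.0058 to 1.73% of the Fed lists. All 10 epithelial marker genes, such as Epcam, Vil1 and Cdx2, were marked in every H3K27ac list and 8 to 10 in the H3K9ac lists. Of 4 muscle and fibroblast genes 0 to 1 and 0 to 2 were marked, and of 5 neuronal genes 0 to 1 and 0 to 2. Of 6 immune genes the mean over lists was 2.5 in Fed and 3.75 in Fast for H3K27ac (1.25 and 1.75 for H3K9ac), and of 6 crypt stem cell genes 1.5 and 4.25 (2.0 and 3.5 for H3K9ac). Whether these shifts play a part in the transporter values by feeding was not tested, and with peak lists from bulk cells a changed mix of cells and a changed mark per cell cannot be told apart.

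At their ends some transporter genes were marked in every list, some in none and many in part of the lists. H3K27ac marked an end of 17 of the 64 in all 8 lists (26.6%, against 33.6% of all genes) and of 25 in none (39.1%, against 39.4%). H3K9ac marked 12 in all 8 lists (18.8%, against 21.1%) and left 10 unmarked (15.6%, against 25.2%). Both marks were present in all 16 lists at 10 genes: Slc3a1, Slc3a2, Slc6a8, Slc6a19, Slc6a20a, Slc7a8, Slc7a9, Slc38a2, Slc38a10 and Slc43a2. For Slc7a8 the only end peak in 2 H3K27ac lists and 1 H3K9ac list also lay at an end of the neighbouring gene Rnf212b. Neither mark reached an end in any list at 8 genes, among them Slc1a2, a glutamate carrier best known from astrocytes, Slc6a2, the noradrenaline carrier, and Slc7a13, Slc7a14 and Slc38a5.

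**Figure D1:**
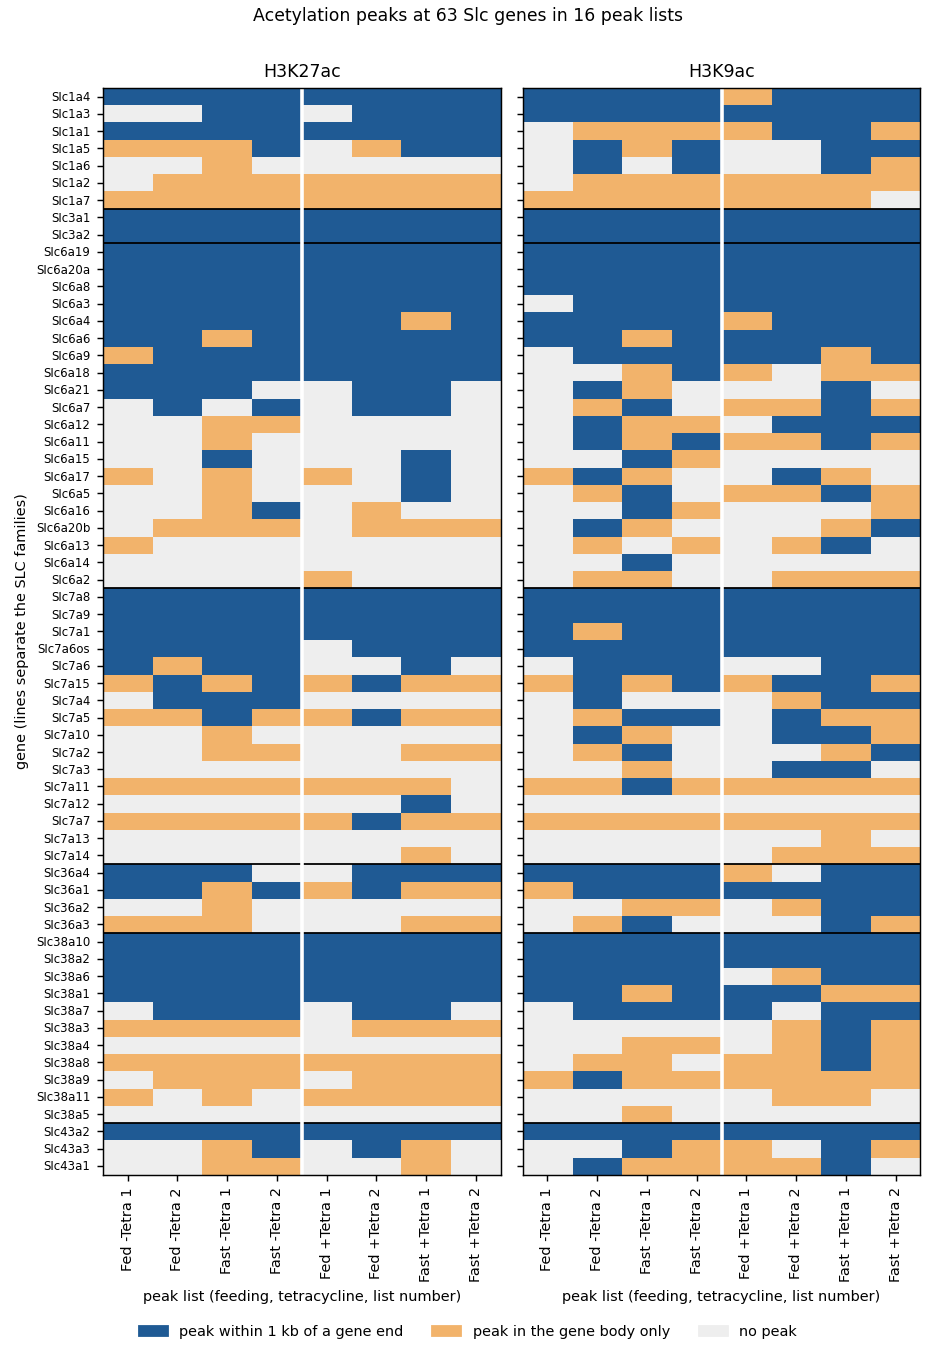
Each row is a gene, 63 of the 64 being drawn, grouped by SLC family, and each column a peak list, with H3K27ac on the left and H3K9ac on the right. Blue marks a peak within 1 kb of a gene end, orange a peak in the body only and grey no peak; 10 genes are blue in all 16 lists.

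The brush border system for cystine and dibasic amino acids was among the steadily marked loci. Slc3a1 encodes the heavy chain and Slc7a9 the light chain of this exchanger, and loss of either causes cystinuria. Ranked by score within a list (the authors' peak score, percentile among all peaks of that list), the best end peak of Slc7a9 had a median percentile of 94.9 for H3K27ac and 95.2 for H3K9ac. For Slc3a1 these were 81.7 and 91.5. H3K27ac covered 2.83 and 7.79 kb of Slc3a1 in the 2 Fed -Tetra lists, 3.75 and 11.3 kb in Fast -Tetra, 5.73 and 9.64 kb in Fed +Tetra and 7.83 and 10.2 kb in Fast +Tetra. List 2 was the longer in each group, and the Fed and Fast lists overlapped.

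The bases before the RefSeq start sites of this pair are shown because both were marked in all 16 lists and because Slc3a1 alone among the transporter genes carried the element CAAAGTCCA, bound by HNF4 factors, which are regulators of enterocyte genes. Sequences are from RefSeq (GRCm38.p6), 250 bases 5′ to 3′ along the gene's strand, ending 1 base before the start. Slc3a1 (chr17:85028097-85028346, plus strand) has the element in capitals, beginning 39 bases before the start. Slc7a9 (chr7:35448842-35449091, plus strand) has its 4 CG dinucleotides in capitals.
Slc3a1: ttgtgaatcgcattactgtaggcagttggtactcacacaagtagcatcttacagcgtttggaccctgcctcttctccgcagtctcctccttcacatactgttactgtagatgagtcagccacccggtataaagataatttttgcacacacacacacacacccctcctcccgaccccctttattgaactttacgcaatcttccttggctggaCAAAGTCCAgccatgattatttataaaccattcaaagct
Slc7a9: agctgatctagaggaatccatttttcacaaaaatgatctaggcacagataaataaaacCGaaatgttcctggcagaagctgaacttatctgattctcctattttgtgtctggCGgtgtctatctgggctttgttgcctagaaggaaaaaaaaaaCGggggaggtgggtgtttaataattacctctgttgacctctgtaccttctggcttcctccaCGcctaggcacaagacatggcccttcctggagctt
The element, searched on both strands in windows from 250 bases before to 50 after the start, was in 1 of the 46 transporter genes in the start-site table (2.17%) and in 0.520% of 17492 genes. Both marked starts are poor in CG. The median number of CG dinucleotides per window was 20 in the 16 transporter genes with H3K27ac at a start site in all 8 lists, against 24 in the 6011 such genes of the genome, and 10.5 in the 20 transporter genes with none, against 4. These are descriptions of the windows, not evidence of binding.

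Of the 7 Slc6 carriers listed for the brush border and its relatives, 3 had H3K27ac at an end in all 8 lists, namely Slc6a18, Slc6a19 and Slc6a20a, and 2 had none. Slc6a19, the main sodium-coupled carrier of neutral amino acids at the enterocyte surface, was covered by H3K27ac over 7.03 and 9.06 kb in Fed -Tetra, 6.86 and 8.36 kb in Fast -Tetra, 5.02 and 10.8 kb in Fed +Tetra and 6.25 and 9.09 kb in Fast +Tetra. The Fed and Fast ranges overlapped. Its covered length came to a median of 33.4% of the gene with its flanks. At its upstream end 1 region, 6900 bp wide after merging the peaks of all lists, held H3K9ac peaks in all 8 lists. H3K9ac covered 2.86 to 8.97 kb of the gene with its flanks per list. Slc6a20a, the carrier of proline and other imino acids, had a median end-peak percentile of 92.7 for H3K27ac and 97.2 for H3K9ac. Its neighbour Slc6a20b had no H3K27ac at its ends in any list and H3K9ac in 2. Slc6a18, a relative of Slc6a19 known mainly from kidney, carried H3K27ac in 8 lists but H3K9ac in 1, and the peak of that 1 list also lay at an end of the adjacent Slc6a19. H3K27ac covered a median of only 0.50 kb of Slc6a18 (0.074 to 2.62 kb), against 7.70 kb of Slc6a19. Slc6a14, a broad carrier of neutral and cationic amino acids, had no H3K27ac peak at all and 1 H3K9ac end peak, in Fast -Tetra list 1. Collectrin (Cltrn), a partner needed to bring Slc6a19 to the membrane in kidney, was marked in no list.

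Among the 12 Slc6 genes for neurotransmitters and osmolytes, Slc6a8 and Slc6a3 had H3K27ac in all 8 lists and 5 had none at their ends. Slc6a8, the creatine carrier, had H3K9ac in all 8 lists as well, and Slc6a3, the dopamine carrier, in 7. Slc6a6, the taurine carrier, was marked in 7 lists of each mark, and H3K27ac covered a median of 16.7 kb of it (11.3 to 25.9 kb). Slc6a4, which takes up serotonin, was covered over a median of 9.28 kb (5.20 to 10.7 kb). The longest median of the 64 genes was that of Slc43a2, a facilitated basolateral carrier of branched-chain and aromatic amino acids, at 17.3 kb (13.5 to 25.1 kb) or 34.9% of the gene with its flanks.

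On the basolateral side, Slc3a2, the heavy chain shared by several Slc7 light chains, had the highest H3K9ac end-peak percentile of the 64 genes, a median of 98.4 (93.4 to 99.9). Its H3K27ac peaks covered 6.53 and 8.75 kb in Fed -Tetra, 5.89 and 8.32 kb in Fast -Tetra, 4.47 and 7.59 kb in Fed +Tetra and 7.21 and 7.22 kb in Fast +Tetra. A start site 9.47 kb inside the model was marked in all 8 lists of both marks, besides the end of the model. Of the 9 light chains, Slc7a8 and Slc7a9 were marked in all 16 lists. Slc7a5, which carries large neutral amino acids and is typical of growing cells, had an end peak in only 2 H3K27ac and 3 H3K9ac lists. Yet 1 body region, 3566 bp wide after merging the peaks of all lists, held H3K27ac peaks in all 8. H3K27ac covered 1.54 to 3.98 kb of the gene with its flanks per list.

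Slc7a7, the light chain that exports lysine and arginine and is lost in lysinuric protein intolerance, had H3K27ac at its ends in 1 list, where the peak also lay at an end of Oxa1l, and H3K9ac in none. Its body held 17 H3K27ac regions, the most of the 64 genes, of which 5 were in all 8 lists, and covered lengths ran from 7.96 to 19.4 kb (median 12.7 kb). RefSeq gives it 5 start sites. The 3 that lie 2.12 to 2.39 kb inside the model had a peak of neither mark in any list. The 2 that lie 9.87 and 10.6 kb inside were under H3K27ac in every list. H3K9ac was at both in all 4 Fed lists but in 1 and 2 of the 4 Fast lists.

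The windows before one start of each kind are shown, since the contrast between them is the finding at this locus. The marked start is chr14:54409473-54409722 and the unmarked one chr14:54417703-54417952, both on the minus strand (RefSeq, GRCm38.p6). In the marked window the 4 CG dinucleotides are in capitals. In the unmarked window, which has 10, capitals show TGATGCAA, a match to the core TGATGNAA of the element bound by ATF4, a factor made under amino acid shortage.
Slc7a7 marked start: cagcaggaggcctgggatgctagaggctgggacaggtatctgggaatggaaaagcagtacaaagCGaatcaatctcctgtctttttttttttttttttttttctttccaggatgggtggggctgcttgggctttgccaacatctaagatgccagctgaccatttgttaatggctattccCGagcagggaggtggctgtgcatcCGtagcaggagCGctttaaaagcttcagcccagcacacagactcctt
Slc7a7 unmarked start: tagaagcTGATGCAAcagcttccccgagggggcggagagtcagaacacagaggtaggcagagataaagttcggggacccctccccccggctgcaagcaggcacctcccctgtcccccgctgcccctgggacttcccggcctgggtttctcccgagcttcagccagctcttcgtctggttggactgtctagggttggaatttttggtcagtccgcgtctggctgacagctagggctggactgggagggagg

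**Figure D2:**
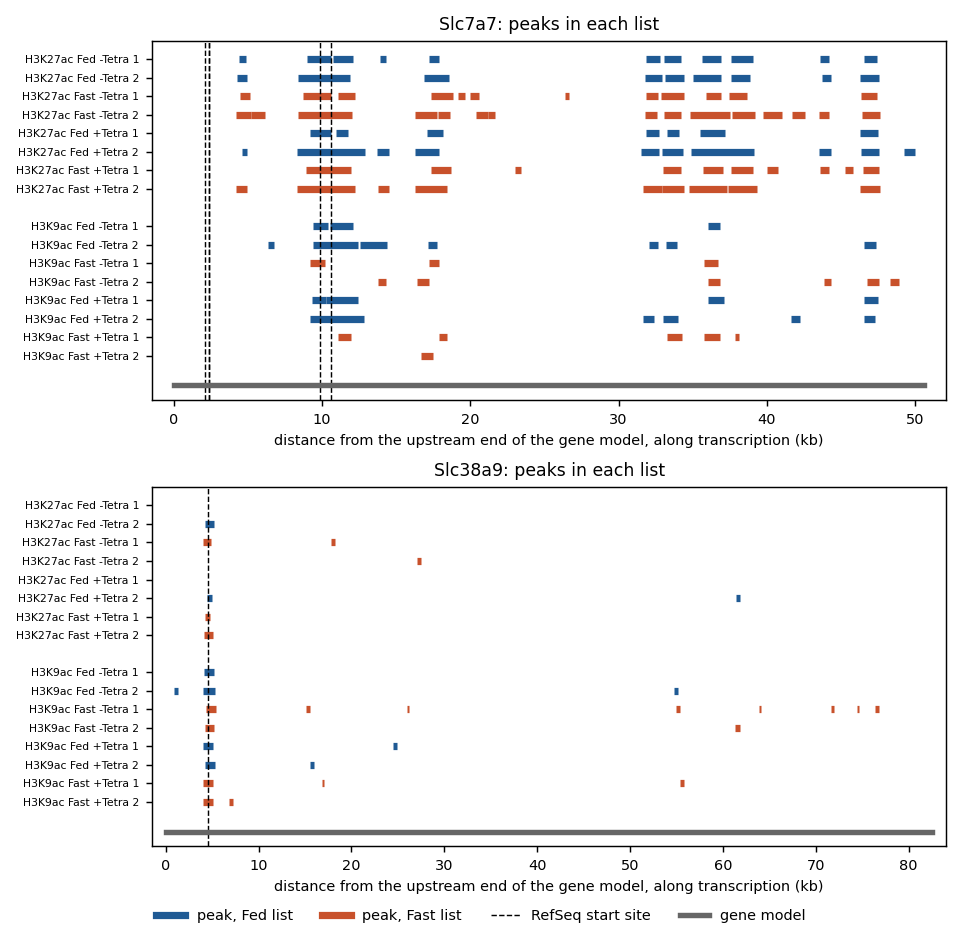
Horizontal bars are the peaks of each list along Slc7a7 (top) and Slc38a9 (bottom), blue for Fed and red for Fast, with the H3K27ac lists above the H3K9ac lists. The x axis is the distance in kb from the upstream end of the gene model and dashed lines are RefSeq start sites. At Slc7a7 every H3K27ac list has a peak at the starts 9.87 and 10.6 kb inside the model, besides peaks elsewhere in the body. H3K9ac lies within 1 kb of these starts in 5 and 6 of the 8 lists. No list of either mark has a peak within 1 kb of the starts 2.12 to 2.39 kb inside.

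H3K9ac covered 3.39 and 8.09 kb of Slc7a7 in Fed -Tetra, 2.65 and 3.94 kb in Fast -Tetra, 5.08 and 6.74 kb in Fed +Tetra and 3.66 and 0.815 kb in Fast +Tetra. The means were 5.83 kb in Fed and 2.76 kb in Fast, the lowest Fed list lying within the Fast range. The difference was -1.04 (SE 0.44) on the log2(bp + 500) scale and did not pass limma's test with Benjamini-Hochberg adjustment over 16968 genes (adjusted p = 0.791). It was the only negative H3K9ac fasting difference with an unadjusted p below 0.05 among the transporter genes.

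Slc38a9, the lysosomal carrier through which arginine is sensed by mTORC1, was also read differently at its start. The ends of its 82.6 kb model had no H3K27ac and H3K9ac in 1 list. Its RefSeq start, 4.58 kb inside the model, had H3K27ac in 5 lists and H3K9ac in all 8. The H3K9ac region there (chr13:112660168-112661572) and the one at the inner start of Slc3a2 (chr19:8711388-8714553) were the only 2 of 510 body regions of the 64 genes found in all 8 H3K9ac lists. The window before the Slc38a9 start (chr13:112660516-112660765, plus strand), shown as the CG-rich contrast to the windows of the brush border pair, has its 15 CG dinucleotides in capitals.
Slc38a9: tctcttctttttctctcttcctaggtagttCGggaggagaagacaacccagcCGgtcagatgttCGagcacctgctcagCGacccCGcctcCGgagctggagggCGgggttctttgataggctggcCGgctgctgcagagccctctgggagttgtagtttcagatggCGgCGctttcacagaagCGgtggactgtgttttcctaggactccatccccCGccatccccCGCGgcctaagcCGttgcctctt

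Among the system A carriers of small neutral amino acids, Slc38a1 and Slc38a2 had H3K27ac in all 8 lists and Slc38a4, known mainly from liver, had no H3K27ac peak. Slc38a2, which many cells raise when amino acids run short, had H3K9ac in all 8 lists. Slc38a1 had H3K9ac at an end in 4 Fed lists but 1 Fast list. It was the only 1 of the 64 marked in at least 3 more Fed lists (1.56%, against 0.726% of all genes). H3K9ac covered length over the gene with its flanks did not differ in the same way, with means of 1.95 kb in Fed and 2.01 kb in Fast. Of the proton-coupled Slc36 carriers none was marked in all 8 lists of either mark. Slc36a1, the lysosomal and brush border member, had H3K27ac in 3 Fed lists and 1 Fast list and H3K9ac in 3 and 4.

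Of 5 glutamate carriers, Slc1a1, the one of the intestinal brush border, carried H3K27ac at an end in 8 lists and H3K9ac in 2. Slc6a18 was the only other gene with one mark throughout and the other in at most 2 lists. Slc1a3 showed the other order, with H3K9ac in all 8 lists and H3K27ac in 5. Of the cationic carriers, Slc7a1 had H3K27ac in 8 lists and H3K9ac in 7, and Slc7a4 had H3K27ac in 3 -Tetra lists and no +Tetra list (0.539% of all genes were marked in at least 3 more -Tetra lists). The ends of Slc38a6 carried marks only where Trmt5 also ends, and those of Slc7a6os only where Prmt7 ends, so neither can be credited to the Slc gene alone.

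The body regions added breadth mainly in H3K27ac. Of 57 H3K27ac regions at the ends of transporter genes 22 were in all 8 lists, and of 224 body regions 30 were. For H3K9ac the figures were 13 of 87 and 2 of 510, and 393 of the body regions came from 1 list. Among all merged regions 14.6% of the H3K27ac and 1.52% of the H3K9ac regions were in all 8 lists, and 53.1% and 84.4% in 1 list. After Slc7a7, the most H3K27ac body regions were in Slc6a6 (14), Slc6a20a (13), Slc7a8 (12) and Slc38a1 (12). For H3K9ac they were in Slc6a6 (29), Slc6a11 (23), Slc7a1 (20), Slc38a10 (20) and Slc1a2 (19), all with most regions in 1 list.

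Fasting was compared with feeding to see which carriers gained or lost acetylation after 24 h without food. The number of transporter genes marked in H3K27ac lists was 24 and 28 in Fed -Tetra, 28 and 31 in Fast -Tetra, 20 and 31 in Fed +Tetra and 31 and 24 in Fast +Tetra. Fast lists held a mean of 2.75 more, less than the pooled SD of 4.94 between lists of a group. In H3K9ac the numbers were 19 and 35, 32 and 30, 19 and 27, and 42 and 29 in the same order. Fast lists held 8.25 more with a pooled SD of 7.85, or 5.5 more when peaks under 500 bp were left out. As a share of genes, the Fast minus Fed difference was 4.30 percentage points for the transporter genes against 1.49 for all genes in H3K27ac, and 12.9 against 1.14 in H3K9ac. Without the narrow peaks the H3K9ac figures were 8.59 and -2.50. The H3K9ac difference was 18.0 genes among lists numbered 1 and -1.5 among those numbered 2. With a window of 2.5 kb it was 13.5, and 23.5 and 3.5 by list number. When every list was held to its 17249 top peaks it was -3.25, which is -5.08 percentage points for the transporter genes against -10.99 for all genes. The difference between +Tetra and -Tetra lists was -1.25 genes in H3K27ac and 0.25 in H3K9ac, smaller in size than the pooled SDs of 4.94 and 7.85. By family, Slc7 had a mean of 6.25 H3K27ac-marked genes in -Tetra and 5.0 in +Tetra lists, and Slc1 2.75 and 3.25. With fasting, Slc1 went from a mean of 2.25 marked genes in Fed to 3.75 in Fast for H3K27ac, while Slc3 stayed at 2 in every list of both marks. The other H3K27ac means for Fed and Fast were 9.0 and 9.75 in Slc6, 5.25 and 6.0 in Slc7, 1.5 and 1.0 in Slc36, 4.5 and 4.75 in Slc38 and 1.25 and 1.25 in Slc43. In H3K9ac, Slc36 went from 1.25 to 3.0 of its 4 genes, Slc6 from 8.0 to 10.25 and Slc7 from 5.75 to 7.75, the lists with many 200 bp peaks being among the Fast ones.

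**Figure D3:**
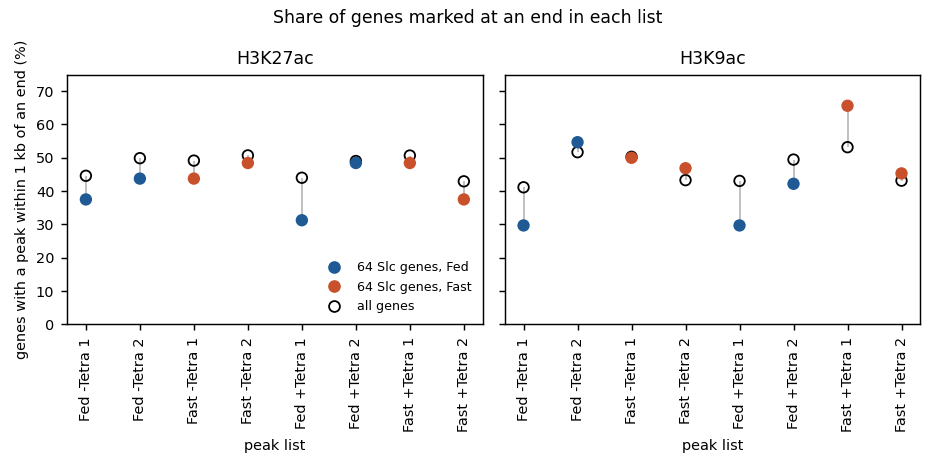
Filled points give the percent of the 64 genes with a peak within 1 kb of an end in each list, blue for Fed and red for Fast, and open circles the percent of all 21887 genes. In H3K27ac the transporter genes run from 31.25 to 48.4% and in H3K9ac from 29.7 to 65.6%, with Fed and Fast overlapping.

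No transporter gene was marked at an end in all 4 Fast and no Fed list, or the reverse, in either mark (all genes: 0.0959% and 0.0137% in H3K27ac, 0.0777% and 0.0411% in H3K9ac). At least 3 more Fast than Fed lists marked Slc1a3 and Slc1a5 in H3K27ac (2 of 64, 3.125%, against 0.841% of all genes) and Slc7a6 in H3K9ac (1 of 64, against 1.04%). At least 3 more Fed lists marked 0 transporter genes in H3K27ac (0.256% of all genes). At least 3 more +Tetra lists marked 0 in either mark (0.238% and 0.631%), and at least 3 more -Tetra lists 0 in H3K9ac (0.48%). Slc7a6 is a light chain that exchanges cationic for neutral amino acids.

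Covered length gave no transporter gene past an adjusted p of 0.05 for fasting, tetracycline or their interaction in either mark (limma with Benjamini-Hochberg adjustment over 14379 genes for H3K27ac and 16968 for H3K9ac, of which 50 and 60 were transporter genes). Among all genes 8 passed for fasting in H3K27ac (0.0556%), all longer in Fast, 1 passed for fasting without tetracycline (0.00695%), and 0 passed in H3K9ac. At an unadjusted p below 0.05, 6 transporter genes were longer and 0 shorter in Fast for H3K27ac (8.6% and 0.988% of all genes tested), and 9 were longer and 1 shorter for H3K9ac (4.39% and 1.36%). The same counts were taken with covered length as a share of the list total. In H3K27ac 5 of 50 were longer and 4 shorter (867 and 845 of all 14379 genes). In H3K9ac 7 of 60 were longer and 4 shorter (605 and 987 of all 16968). With equal numbers of top peaks, 4 of 39 were longer and 0 shorter in H3K27ac (730 and 475 of all 12717 tested). In H3K9ac 1 of 40 was then longer and 3 shorter (135 and 1375 of all 13267 tested). The median fasting difference was 0.25 (log2) over the 50 genes against 0.16 over all genes in H3K27ac, and 0.30 over the 60 against 0.17 in H3K9ac. The H3K27ac median was 0.11 without Fed +Tetra list 1 and 0.49 without Fed +Tetra list 2. The H3K9ac median was 0.04 without Fed -Tetra list 1 and 0.56 without Fed -Tetra list 2. With equal numbers of top peaks the medians were 0.02 against 0.03 over all genes in H3K27ac, and -0.01 against -0.33 in H3K9ac. Every Fast list exceeded every Fed list in 5 of the 64 genes for H3K27ac, namely Slc1a3, Slc1a4, Slc1a5, Slc38a1 and Slc7a2 (7.81%, against 3.52% of all genes), and in 6 for H3K9ac, namely Slc1a2, Slc36a2, Slc38a4, Slc6a11, Slc7a11 and Slc7a6 (9.38%, against 2.24%). The reverse held for 0 in both marks (0.283% and 0.544%).

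Slc7a2, an inducible carrier of arginine and lysine, had the lowest adjusted p for fasting among the transporter genes, without passing the threshold. Its H3K27ac covered length was 0 in all 4 Fed lists, 1.33 and 0.907 kb in the Fast -Tetra lists and 0.721 and 0.958 kb in the Fast +Tetra lists. Peaks were thus listed in every Fast list and no Fed list. In each Fast list a peak lay in 1 region of the gene body, chr8:40876176-40877507. It was the only one of the 281 H3K27ac regions in transporter genes with all 4 Fast and no Fed lists (0.4% of all 112301 regions). The fitted difference, which depends on the pseudocount because Fed is at 0, was 1.55 (SE 0.23), with an adjusted p of 0.119 in limma's Benjamini-Hochberg test. H3K9ac reached an end of Slc7a2 in 2 Fast lists and no Fed list.

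Slc1a5 takes up glutamine and other neutral amino acids and serves dividing cells. H3K27ac covered 1.76 and 2.01 kb of it in Fed -Tetra and 2.43 and 4.56 kb in Fast -Tetra. With tetracycline the values were 0 and 0.662 kb in Fed and 3.39 and 3.85 kb in Fast. The Fast lists lay above the Fed lists in both tetracycline states, with means of 3.56 and 1.11 kb and a log2 difference of 1.56 (SE 0.32; limma, Benjamini-Hochberg adjusted p = 0.201). H3K9ac values for Slc1a5 overlapped: 0 and 3.19 kb in Fed -Tetra, 1.33 and 3.04 kb in Fast -Tetra, 0 and 0 in Fed +Tetra and 2.16 and 2.16 kb in Fast +Tetra.

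For Slc1a3, a glutamate and aspartate carrier, H3K27ac was listed at 0 in both Fed -Tetra lists, at 1.74 and 0.796 kb in Fast -Tetra, at 0 and 0.458 kb in Fed +Tetra and at 0.688 and 0.521 kb in Fast +Tetra. The groups did not overlap, and the log2 difference was 1.22 (SE 0.32; limma, Benjamini-Hochberg adjusted p = 0.317). For Slc7a5 the 2 tetracycline states looked unlike each other. H3K27ac covered 1.61 and 1.57 kb in Fed -Tetra and 3.98 and 3.47 kb in Fast -Tetra, but 1.54 and 2.25 kb in Fed +Tetra and 2.44 and 1.82 kb in Fast +Tetra. The test of that unlikeness, the interaction term, gave -0.87 (SE 0.35) with a limma Benjamini-Hochberg adjusted p of 1.0.

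Slc7a11, the light chain that exchanges cystine for glutamate, was the transporter gene with the lowest unadjusted p for fasting in H3K9ac (0.0040; limma, Benjamini-Hochberg adjusted p = 0.791). H3K9ac covered 0.714 and 0.475 kb in Fed -Tetra, 3.67 and 2.69 kb in Fast -Tetra, 0.664 and 0.657 kb in Fed +Tetra and 1.19 and 1.88 kb in Fast +Tetra. All 4 Fast lists lay above all 4 Fed lists and the log2 difference was 1.27 (SE 0.32), or 0.28 with equal numbers of top peaks. The RefSeq start of Slc7a11, 55.5 kb inside its model, had H3K27ac in 1 list and H3K9ac in 2, all Fast. Its window (chr3:50443614-50443863, minus strand) is shown because it holds the ATF4 core on both strands, in capitals, the forward copy beginning 66 and the reverse copy 47 bases before the start.
Slc7a11: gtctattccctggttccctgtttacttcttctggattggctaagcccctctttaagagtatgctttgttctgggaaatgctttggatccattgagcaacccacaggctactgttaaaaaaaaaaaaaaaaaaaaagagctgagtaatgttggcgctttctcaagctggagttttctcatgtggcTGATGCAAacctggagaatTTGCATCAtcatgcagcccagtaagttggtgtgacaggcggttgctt
The core TGATGNAA, on either strand, was in windows of 4 of the 46 genes, Slc1a4, Slc6a21, Slc7a7 and Slc7a11 (8.70%), and in 4.13% of 17492 genes. The start of Slc1a4 was marked by H3K27ac in 8 lists, and the 3 starts of Slc7a7 near its core in none.

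**Figure D4:**
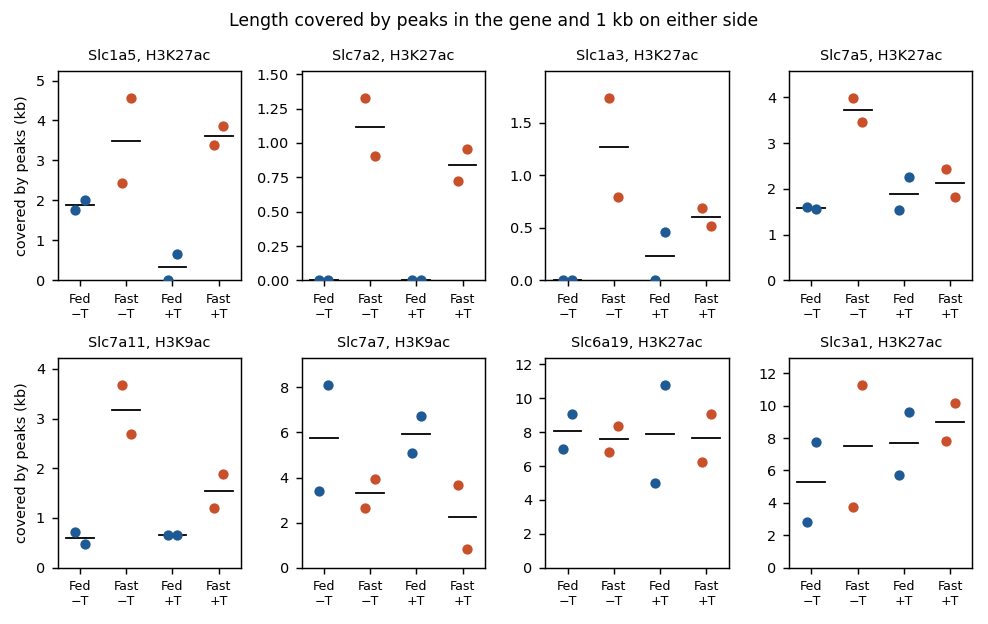
Points are the covered length in kb in each list, blue for Fed and red for Fast, without (−T) and with (+T) tetracycline, and lines are group means of 2 lists. Slc1a5, Slc7a2, Slc1a3 and Slc7a11 have all Fast points above all Fed points; those of Slc6a19 and Slc3a1 overlap.

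No difference by tetracycline passed the adjusted test. At an unadjusted p below 0.05, H3K27ac covered less of Slc7a6, Slc7a4 and Slc1a5 in +Tetra lists (3.88% of all genes were shorter, 0.675% longer). For Slc1a5 the lower values were those of the Fed lists, while the Fast values given above overlapped between -Tetra and +Tetra. For Slc7a4 the -Tetra values were 0, 1.20, 0.674 and 0.869 kb and all +Tetra values were 0. H3K9ac covered more of Slc7a8, with 0.641, 2.77, 2.85 and 2.14 kb in -Tetra and 3.36, 6.91, 3.56 and 5.25 kb in +Tetra, and the log2 difference was 1.08 (SE 0.40; limma, Benjamini-Hochberg adjusted p = 1.0). It was the 1 transporter gene of 64 with every +Tetra list above every -Tetra list in H3K9ac (0.594% of all genes). The reverse held for 0 in H3K9ac (0.356%), and in H3K27ac neither order held for any transporter gene (0.164% and 0.95% of all genes). Slc7a8 and Slc7a14 were the 2 genes longer in H3K9ac at an unadjusted p below 0.05 (1.27% of all genes), and Slc6a15 the 1 shorter (0.925%). In Slc38a11 a body region, 692 bp wide after merging (chr2:65320905-65321596), held H3K27ac peaks in all 4 +Tetra and no -Tetra lists. It was 1 of the 281 H3K27ac regions in transporter genes (0.356%), against 0.024% of all H3K27ac regions. With peaks of at least 500 bp, or with equal numbers of top peaks, 0 regions in transporter genes had this pattern.

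Uptake partners and genes of amino acid sensing formed a list of 31. H3K27ac marked 25 to 29 of them per list, where 42.9 to 50.7% of all genes were marked. It marked 22 in all 8 lists, against 33.6% of all genes. H3K9ac marked 22 to 29 per list (41.1 to 53.2% of all genes) and 11 in all 8 (21.1% of all genes). Eif2ak4, the kinase that senses uncharged tRNA, Atf4 and its target Asns each had 8 H3K27ac and 7 H3K9ac lists. Mtor and Rptor, of the growth-controlling kinase complex, had H3K27ac in all 8. Of the 30 tested for covered length, 0 passed the adjusted limma test for fasting in either mark.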

How the data were processed

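H3K27ac and H3K9ac CUT&Tag of mouse small intestinal crypts gave 16 deposited peak lists, 2 per sample. Per the submitters' processing notes, FastQC, Bowtie, SAMtools and the mm10 build were used. Peak names begin with MACS; its version, cutoff and any use of IgG libraries are not given in the sources used here. The fifth column is a peak score deposited by the authors without a unit (at least 50, many values at a ceiling); it was used only to rank peaks within a list. Names call the data downsampled, so depth is unknown and no depth-based interval is given.

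Peaks on the 19 autosomes, X and Y were joined to RefSeq GRCm38.p6 protein-coding genes (pandas 2.3.3). Peaks of a mark sharing 1 bp were merged into regions. RefSeq start sites covered 46 of the 64 genes. Covered length, as log2(bp + 500), was fitted with limma 3.58.1 (R 4.3.3) to 4 group means per mark, over genes covered in at least 2 lists, with Benjamini-Hochberg adjustment at 0.05. On simulated data with planted fasting differences the fit recovered 42 of 100 genes at 1.5 (log2) and 85 of 100 at 3 for H3K27ac (14379 genes), and 7 and 55 of 100 for H3K9ac (16968 genes), and called 11 and 1 genes with no planted difference. The simulated noise was normal on the log2 scale and independent between genes and lists. Peak lists hold exact zeros and differ in peak number, so recovery in the real data may differ.

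The transporter genes, gene lists and tests were chosen with earlier results of these data known, so counts of marked genes carry no test. Named genes were 22 fixed carriers, those marked in at least 3 more lists of one state than of the other, any past the adjusted threshold, the 10 highest-scoring constantly marked and the 5 with most body regions per mark, and those with one mark in 8 lists and the other in at most 2. Other genes were named after their values were seen. Some genes are not reported here by name.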

Additional observations from a re-analysis of the deposited data

Results flagged for a closer look

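Slc1a4, which carries alanine, serine and cysteine, moved in opposite directions in the 2 tetracycline states in H3K9ac. Without tetracycline both Fast lists (0.994 and 1.18 kb covered) lay below both Fed lists (1.42 and 1.62 kb), and with tetracycline both Fast lists (1.66 and 1.44 kb) lay above both Fed lists (0.798 and 1.42 kb). The fasting difference without tetracycline minus that with tetracycline was -0.876 kb. Such opposite movement without overlap was found in 1 of the 64 transporter genes (1.56%) and in 1.59% of all genes in H3K9ac, and in 0 and 1.4% in H3K27ac. The interaction term, coded in the opposite order, was 0.73 (SE 0.61) on the log2 scale and did not pass the test (limma, Benjamini-Hochberg adjusted p = 1.0).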

How the results depend on the processing

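Fast minus Fed counts of marked genes were positive with every window and score setting except top peaks. With each list cut to its top peaks, equal in number, they were -0.75 genes in H3K27ac (-1.17 percentage points, against -2.37 over all genes) and -3.25 in H3K9ac (-5.08 against -10.99). At 2.5 kb they were 4.0 and 13.5, and leaving out the lists of 1 number gave -2.0 to 7.5 and -1.5 to 18.0. Tetracycline differences changed sign to 0.75 (upper 0.5 by score) and 0.25 (top peaks) in H3K27ac. In H3K9ac they became -0.25 (top peaks), -0.5 (peaks of at least 500 bp), -1.5 (2.5 kb), -1.0 (start sites alone) and -4.5 to 5.0 without one number. Genes marked in all lists fell to 10 in H3K27ac and 7 in H3K9ac with the upper 0.5 by score. These were 15.6% and 10.9% of the transporter genes. The shares of all genes fell too, from 33.6 to 20.8% in H3K27ac and from 21.1 to 12.2% in H3K9ac. Genes with no H3K9ac numbered 24 with the upper 0.5 (37.5%, against 37.8% of all genes). They numbered 32 of 64 with top peaks, where 44.5% of all genes had none. With wide peaks they numbered 19 (29.7%, against 36.5%) and at 2.5 kb 4 (6.25%, against 16.3%). Without one number they were 14 to 22. Genes marked in all Fast and no Fed lists numbered 1 with wide peaks in H3K27ac (21 of all 21887 genes). At 2.5 kb in H3K9ac they numbered 1 (44 of all genes). Without one number the rule rests on 4 lists per mark. H3K27ac then gave 1 to 3 (92 to 500 of all genes) and H3K9ac 0 to 5 (155 to 893). The reverse gave 0 to 1 (56 to 212) and 1 to 2 (146 to 627).

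The Slc7a2 region was lost with top peaks (0 regions), while wide peaks gave 2. The Slc38a11 region of the +Tetra lists was lost with top peaks and with wide peaks (0 regions each). H3K9ac regions in all 8 lists numbered 9 with top peaks, against 15, and 1 was then in all Fed and no Fast lists. For covered length, no transporter gene passed under any alternative except Slc6a12 without tetracycline, with no filter (1 gene). All H3K27ac genes past the threshold for fasting, 8 in number, became 13 (upper 0.5), 2 (top peaks), 0 (ends only), 14 (share of the list total), 0 and 1 (pseudocounts of 100 and 1000 bp), 36 (no filter), 20 (no interaction term), 0 with wide peaks, a setting chosen after seeing the data, and 0 to 0 without any one list. H3K9ac gave 52 with no filter. The median H3K9ac fasting difference of the transporter genes became -0.01 with top peaks, where that of all genes was -0.33 and 47.5% of transporter genes and 27.7% of all genes were positive. The 16 fasting differences with an unadjusted p below 0.05 kept their sign under every alternative that retained the gene (12 to 18 of 18). Their size did not hold: Slc7a5 in H3K27ac went from 0.58 to 0.06 (ends only), and in H3K9ac Slc7a11 from 1.27 to 0.28 (top peaks) and Slc7a6 from 1.45 to 0.37 (upper 0.5). The list numbers are the replicate numbers in the names of the lists. Over 6 pairs of groups, lists of one number deviated together weakly in H3K27ac (correlations across genes from 0.07 to 0.23). In H3K9ac they did not do so throughout (from -0.07 to 0.19). With the list number as a replicate block 1 gene passed in H3K27ac, and no transporter gene.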

Other observations

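Slc38a8, a glutamine carrier of the Slc38 family, and Slc1a7, a glutamate carrier best known from retina, had no H3K27ac at their ends but had it in the body in all 8 lists. Covered lengths were 3.02 to 5.65 kb (median 5.01 kb) in Slc38a8 and 0.794 to 1.76 kb (median 1.14 kb) in Slc1a7. A RefSeq start of Slc7a15 that lies 59.5 kb inside its model was marked in 8 H3K27ac and 6 H3K9ac lists, and the start at its upstream end in 3 and 2.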
